A study of Mus musculus with 9 samples.

Results

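Amino acid transporters were examined in primary macrophages grown from mouse bone marrow (BMDMs), from which RANKL, the osteoclast differentiation factor, induces osteoclasts. The 10 genes Slc3a2, Slc7a11, Slc7a5, Slc7a8, Slc1a5, Slc1a4, Slc38a2, Slc6a9, Slc7a1 and Slc7a2 were taken by name from a table of 28379 genes, and each matched 1 row. All 3 groups were cultured with M-CSF (20 ng/ml), the growth factor that keeps macrophages alive, and were collected after 48 h of treatment. RANKL at 100 ng/ml was added in 2 of them, alone (RANKL group) or together with vitamins (RANKL + Vit D + K group). These were vitamin D (calcitriol, 1000 nM) and vitamin K (MK4, labelled 20 µM). Cells of the PBS group had neither RANKL nor vitamins. The study's methods give a higher MK4 dose than the labels, so the dose is uncertain. Each group had 3 libraries, 9 in all, and no group received a single vitamin or the vitamins without RANKL. The cells came from C57BL/6J mice, and the libraries were described as made from pooled RNA. Neither the number of mice nor of cultures behind a library was stated, so p-values measure the spread between these libraries, which may be technical.

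Amino acids cross the plasma membrane through solute carriers, some of which exchange one amino acid for another while others couple the transport to sodium or protons or let it follow the membrane potential. Several of these carriers are pairs: the heavy chain Slc3a2 (CD98hc, 4F2hc) carries a light chain of the Slc7 family to the cell surface, and the light chain sets which amino acids pass. Slc7a11 makes the cystine/glutamate antiporter that feeds glutathione synthesis, and Slc7a5 makes LAT1, the leucine and large neutral amino acid exchanger that feeds mTORC1 signaling. Many transporter genes are known targets of ATF4, the transcription factor of the amino acid response, and Slc7a11 is also a known target of NRF2, the factor of the oxidative stress response.

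The total count per library lay between 65915112 and 68229647, and 3 counts were at most 4.55e-06% of a library. The 10 genes together took between 0.0727% and 0.0978% of all counts in the 6 PBS and RANKL libraries, and between 0.349% and 0.470% in the 3 libraries with vitamins. In each group, replicate 2 stood apart from replicates 1 and 3. The chi-square per degree of freedom between counts was between 27.5 and 57.0 for replicates 1 and 3 of a group, and between 78.5 and 514 for any pair with replicate 2. All 8 macrophage markers were detected in every group, with a summed FPKM (fragments per kilobase of transcript, scaled to library size) of 26412 to 30648 in PBS, 16672 to 24298 in RANKL and 4533 to 11576 with vitamins. Lyz2 made up most of that sum. The means of Csf1r, Fcgr1, Mertk, Adgre1 and Cd14 were likewise lower in RANKL than in PBS and lower again with vitamins (Csf1r 964, 544 and 183 FPKM). Cd68 (504, 552 and 718 FPKM) and Itgam (158, 234 and 169 FPKM) did not follow that order. Of the summed FPKM of 8 osteoclast markers, the range was 13.7 to 21.1 in PBS, 472 to 996 in RANKL and 51.7 to 85.6 with vitamins, and Calcr was at 0 in PBS and with vitamins. Atp6v0d2 stood apart from that sum, with a mean of 32.9 FPKM in RANKL and 24.4 with vitamins. The summed FPKM of 8 neutrophil markers was 11.1 to 128 in PBS, 11.3 to 148 in RANKL and 0.551 to 1.72 with vitamins, where 5 of the 8 were at 0. Markers of stromal, B, T, erythroid and mast cells stayed at or below a sum of 0.795 in every library. The part of these marker changes in the transporter levels was not tested, and in bulk RNA fewer cells of a type and less RNA per cell cannot be told apart.

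With the vitamins, 7 of the 10 transporter genes rose over RANKL alone, in the edgeR quasi-likelihood test over 17002 genes at a Benjamini-Hochberg adjusted p under 0.05. They were Slc1a4, Slc7a11, Slc7a5, Slc7a1, Slc3a2, Slc6a9 and Slc38a2, with log2 fold changes between 1.60 and 5.09. The other 3 genes, Slc7a8, Slc1a5 and Slc7a2, lay between 0.44 and 0.67 and did not pass the test. The median log2 fold change of the 10 was 3.31, beside -0.04 over all genes tested. Of all genes, 16.4% were called higher and 17.2% lower in this comparison. The higher share of the calls was 48.8%, and 35.6% with limma on log2(FPKM + 0.1), where the median of all genes was -0.16. Against the PBS group, 8 of the 10 were higher with the vitamins (median log2 fold change 2.16), where 19.8% of all genes were called higher and 21% lower. RANKL alone gave 1 call among the 10, the fall of Slc6a9, beside 2.35% of all genes called higher and 1.26% lower. In that comparison 4 of the 10 had an unadjusted p under 0.05, DESeq2 called 4, and edgeR with the replicate number as a block called 2. DESeq2 called 1612 genes in all there, in place of 614. For the unadjusted p and the block no share of all genes is given, so those counts have no background beside them. Without the 3 replicate 2 libraries, the calls among the 10 were 2 for RANKL against PBS, 9 for vitamins against RANKL and 9 for vitamins against PBS. Calls among all 17214 genes tested in that fit also rose, to 1740, 8952 and 9240 in the same order, from 614, 5725 and 6932. The comparisons share libraries, so their calls are not independent of each other.

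**Figure D1:**
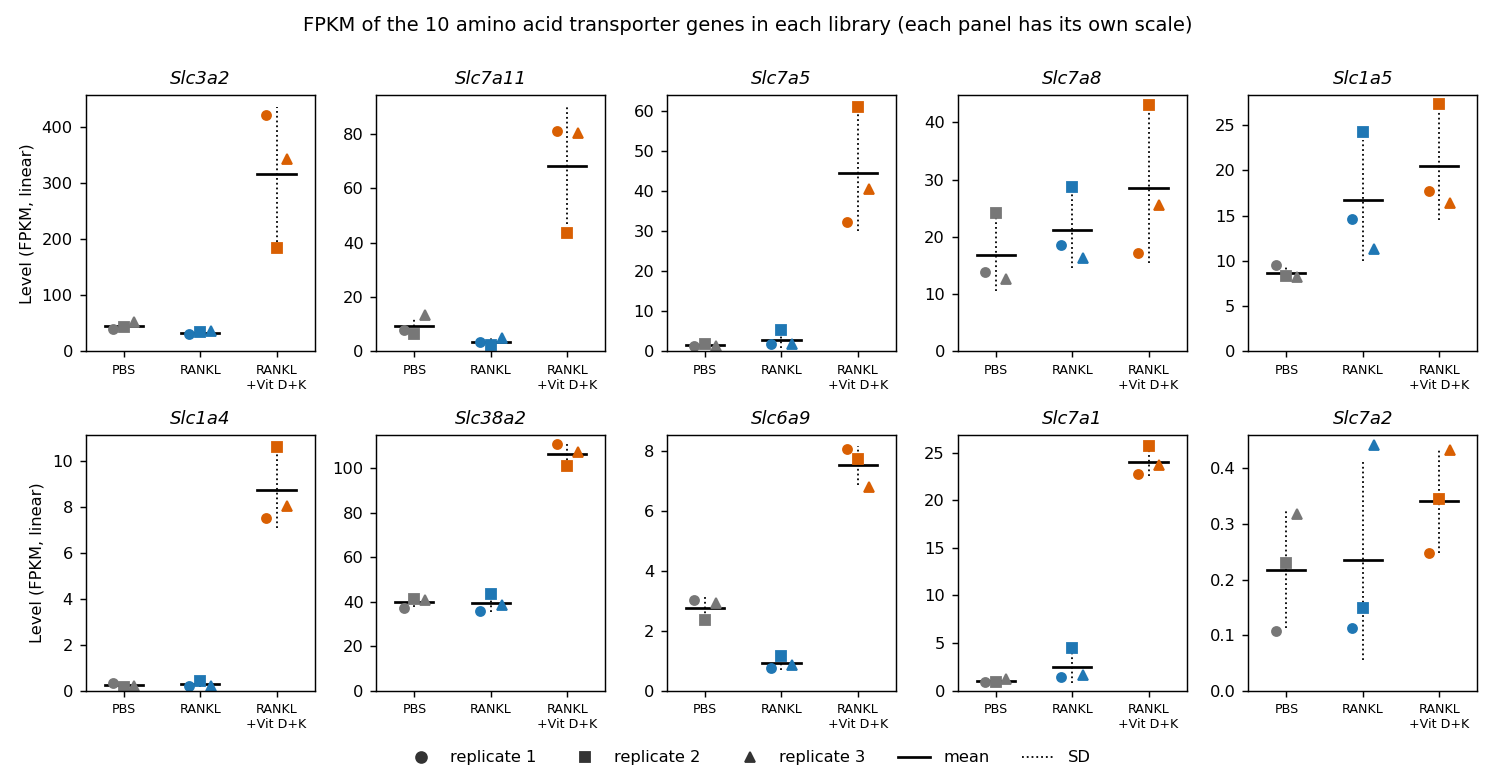
FPKM of each gene (vertical axis, linear, own scale per panel) in the PBS, RANKL and RANKL + Vit D + K groups. Each point is 1 library, with the mean as a bar and the SD as a dotted line. For Slc38a2 the vitamin libraries lie between 101.2 and 111 FPKM, above all other libraries, while for Slc7a8 those between 17.2 and 43.1 overlap with RANKL.

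Slc3a2, on chromosome 19 (8706882 to 8723369, minus strand, GRCm38), encodes the heavy chain that the Slc7 light chains share. Its FPKM was 39.7, 43.4 and 52.7 in the PBS libraries, 30.6, 33.7 and 36.2 in RANKL, and 421.5, 185 and 343 with vitamins. All 3 vitamin libraries were above every other library, and replicate 2 was the lowest of them. The level rose 10.7-fold over RANKL (log2 fold change 3.42, SE 0.33, adjusted p = 0.000394). By mean FPKM, Slc3a2 ranked 830th of all genes in PBS, 1261st in RANKL and 80th with vitamins. Between RANKL and PBS the libraries did not overlap, but the log2 fold change of -0.56 did not pass the test (adjusted p = 0.371). It passed without replicate 2 of the vitamin group (adjusted p = 0.0426) and with only the 2 groups in the fit (adjusted p = 0.0487).

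Slc7a11 (xCT), on chromosome 3 (49892526 to 50443614, minus strand), is the cystine/glutamate light chain. It stood at 7.71, 6.47 and 13.2 FPKM in PBS and at 3.29, 2.28 and 4.81 in RANKL. With vitamins it stood at 81.0, 43.5 and 80.5 FPKM. The 3 groups did not overlap, and the RANKL libraries were the lowest. The vitamins raised it 22.1-fold over RANKL (log2 fold change 4.46, SE 0.46, adjusted p = 0.000501) and 7.73-fold over PBS (log2 fold change 2.95, adjusted p = 0.00109). The lower level in RANKL than in PBS had a log2 fold change of -1.51 and an adjusted p of 0.0793. With the replicate number as a block, which pairs the PBS and RANKL libraries, it was -1.53 with an adjusted p of 0.00806. Without replicate 2 of the vitamin group the adjusted p was 0.0277.

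The promoter of Slc7a11 is shown because it holds the letters TGATGNAA, the core of the element that ATF4 and its partners are known to bind (often called CARE). In the RefSeq window of 250 bases before to 50 bases after the start (GRCm38.p6, chr3:50443564-50443863, minus strand, printed 5′ to 3′ along the gene), the capitals mark 1 match on the sense strand at 66 to 59 bases upstream and 1 on the antisense strand at 47 to 40 bases upstream.
Slc7a11: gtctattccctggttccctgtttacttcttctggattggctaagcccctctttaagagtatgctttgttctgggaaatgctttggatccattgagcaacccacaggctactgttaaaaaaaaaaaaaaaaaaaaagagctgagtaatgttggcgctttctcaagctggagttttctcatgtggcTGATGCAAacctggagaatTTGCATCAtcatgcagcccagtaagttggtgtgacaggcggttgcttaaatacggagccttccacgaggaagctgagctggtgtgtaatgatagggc
The promoter of Slc1a4, the gene with the largest edgeR log2 fold change of the 10, is shown for the same letters (chr11:20332664-20332963, minus strand). The capitals mark 1 match on the antisense strand, which begins at base 247 of the window and runs across the start.
Slc1a4: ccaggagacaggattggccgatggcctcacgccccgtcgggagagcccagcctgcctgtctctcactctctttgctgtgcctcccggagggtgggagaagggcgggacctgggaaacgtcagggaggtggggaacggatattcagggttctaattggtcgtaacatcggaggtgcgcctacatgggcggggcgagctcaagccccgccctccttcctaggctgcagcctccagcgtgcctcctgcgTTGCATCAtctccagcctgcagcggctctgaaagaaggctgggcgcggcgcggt
Windows were found for 7 of the 10 genes, 10 windows in all, since Slc6a9 and Slc7a1 have more than 1. Slc7a5, Slc1a5 and Slc7a2 had none. No other window held TGATGNAA on either strand, while among 32817 promoter windows of the same length 3.97% held it and 0.0701% held it at least 2 times. The letters TGACNNNGC, the core of the NRF2 element, were found in 1 window each of Slc7a1 and Slc38a2 and in 2 windows of Slc6a9, and in 12.4% of all windows. A match describes letters in these windows, not binding.

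Slc7a5 (LAT1), on chromosome 8 (121881150 to 121907694, minus strand), was low without vitamins. Its FPKM was 1.29, 1.81 and 1.35 in PBS, 1.68, 5.40 and 1.71 in RANKL, and 32.4, 61.0 and 40.7 with vitamins. Replicate 2 was the highest library in each group, and the vitamin libraries were above all others. The gene rose 17.0-fold over RANKL (log2 fold change 4.08, SE 0.44, adjusted p = 0.000663) and 30.1-fold over PBS (adjusted p = 0.000236). Without replicate 2 of the RANKL group the log2 fold change over RANKL was 4.80. RANKL and PBS overlapped (log2 fold change 0.83, adjusted p = 0.317), and without the same library that difference was 0.11.

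Slc7a8 (LAT2), on chromosome 14 (54722209 to 54781946, minus strand), is the other large neutral amino acid light chain among the 10. It gave 13.8, 24.2 and 12.7 FPKM in PBS, 18.6, 28.7 and 16.3 in RANKL, and 17.2, 43.1 and 25.5 with vitamins. The 3 groups overlapped, and replicate 2 was the highest library of each. Against RANKL the log2 fold change was 0.56 (SE 0.32, adjusted p = 0.214), and against PBS it was 0.76 (adjusted p = 0.0896). Without the 3 replicate 2 libraries both differences passed the test, at 0.46 (adjusted p = 0.0478) and 0.76 (adjusted p = 0.00642). Against PBS the test was also passed without replicate 2 of the PBS group (1.14, adjusted p = 0.0354) or replicate 1 of the vitamin group (1.04, adjusted p = 0.0380). With the replicate number as a block, both differences passed the test (adjusted p = 0.0341 against RANKL).

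**Figure D2:**
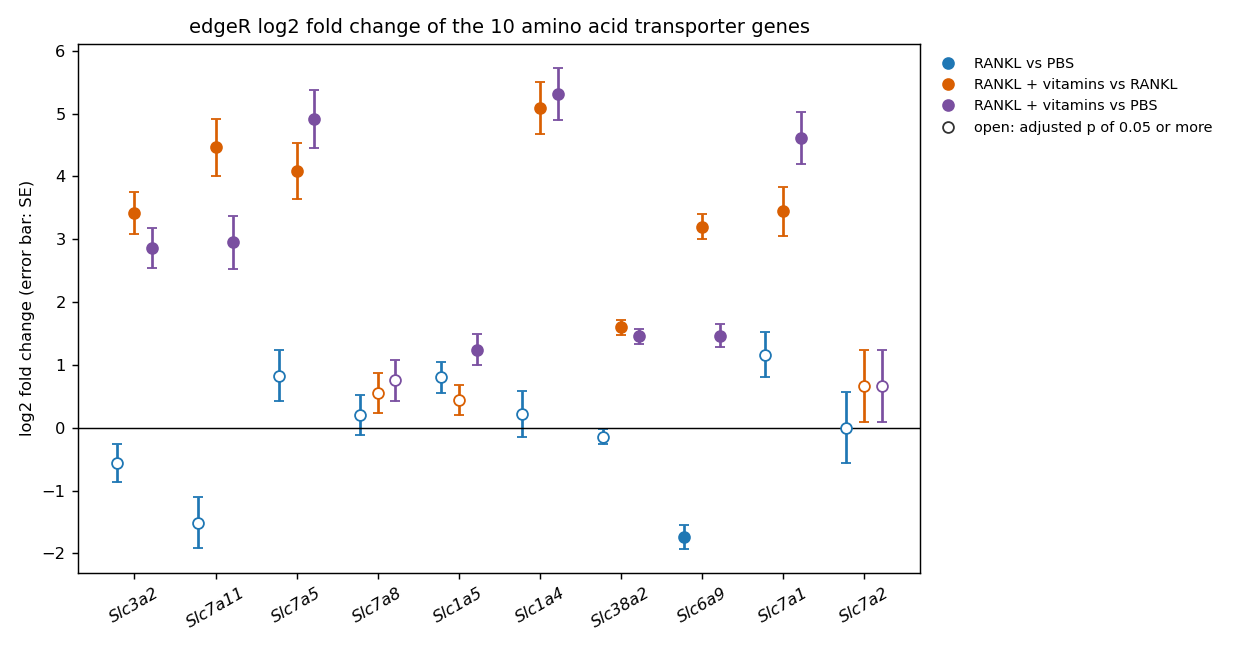
Log2 fold change of each gene (vertical axis, error bars SE) in the 3 comparisons, with filled points for an adjusted p under 0.05. The vitamin comparisons reach 5.09 and 5.31 for Slc1a4, and Slc6a9 is the only filled point for RANKL against PBS, at -1.74.

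The light chains were next set against each other on the FPKM scale, which is per length. Slc7a6 (y+LAT2) and Slc7a7 (y+LAT1), which exchange cationic for neutral amino acids, were included as the other light chains in the table that are known partners of Slc3a2. The summed FPKM of the 5 light chains was 39.3 ± 4.13 in PBS, 39.9 ± 7.21 in RANKL and 149 ± 11.6 with vitamins (SD, n = 3). Slc7a8 held the largest mean share of the sum in PBS (42.2% ± 11.8) and in RANKL (52.4% ± 6.71), and 18.8% ± 7.65 with vitamins. In PBS replicate 3 the share of Slc7a11 (33.8%) was above that of Slc7a8 (32.5%), and with CPM, which is not per length, the mean shares in PBS were 47.8% for Slc7a11 and 32.7% for Slc7a8. Slc7a11 held 23.5% ± 9.59 in PBS, 9.15% ± 4.47 in RANKL and 46.4% ± 16.7 with vitamins. The share of Slc7a5 was 3.75% ± 0.35, 6.89% ± 3.73 and 29.6% ± 7.99 in the same order. Slc7a7 held 20.1% and 21.4% in PBS and RANKL and 2.10% with vitamins, and Slc7a6 held 10.5%, 10.2% and 3.05%. In vitamin replicate 2 the largest share was that of Slc7a5 (38.7%), and in the other two it was that of Slc7a11 (59.5% and 52.1%).

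Relative to the heavy chain, the summed light chains had a mean FPKM ratio of 1.20 ± 0.23 in RANKL and 0.541 ± 0.276 with vitamins (SD, n = 3), with no overlap between libraries. In PBS it was 0.879 ± 0.134, which overlapped with the vitamin libraries (exact p = 0.2). The exact permutation test of 3 against 3 libraries cannot give a two-sided p below 0.1, which is the value reached for vitamins against RANKL. With CPM the log2 difference between these groups was -0.55 in place of -1.25 (exact p = 0.2). The ratio of Slc7a11 to Slc3a2 was 0.108, 0.0676 and 0.133 in the RANKL libraries and 0.192, 0.235 and 0.235 with vitamins (exact p = 0.1). In PBS it was 0.194, 0.149 and 0.250, which overlapped with the vitamin group (exact p = 0.7). The ratio of Slc7a8 to Slc3a2 had a mean of 0.116 with vitamins and 0.638 with RANKL. The mean log2 difference was -2.79 (exact p = 0.1), and it was -2.23 without vitamin replicate 1 and -3.49 without vitamin replicate 2. The ratio of Slc7a5 to Slc3a2 overlapped between these groups (0.175 against 0.0876, exact p = 0.3). Slc7a11 over Slc7a5 was 6.43 in PBS and 1.73 in both other groups, with no overlap between PBS and either (exact p = 0.1). Of the 15 ratio comparisons made, none could pass a 0.05 threshold, since the smallest p of this design is 0.1.

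**Figure D3:**
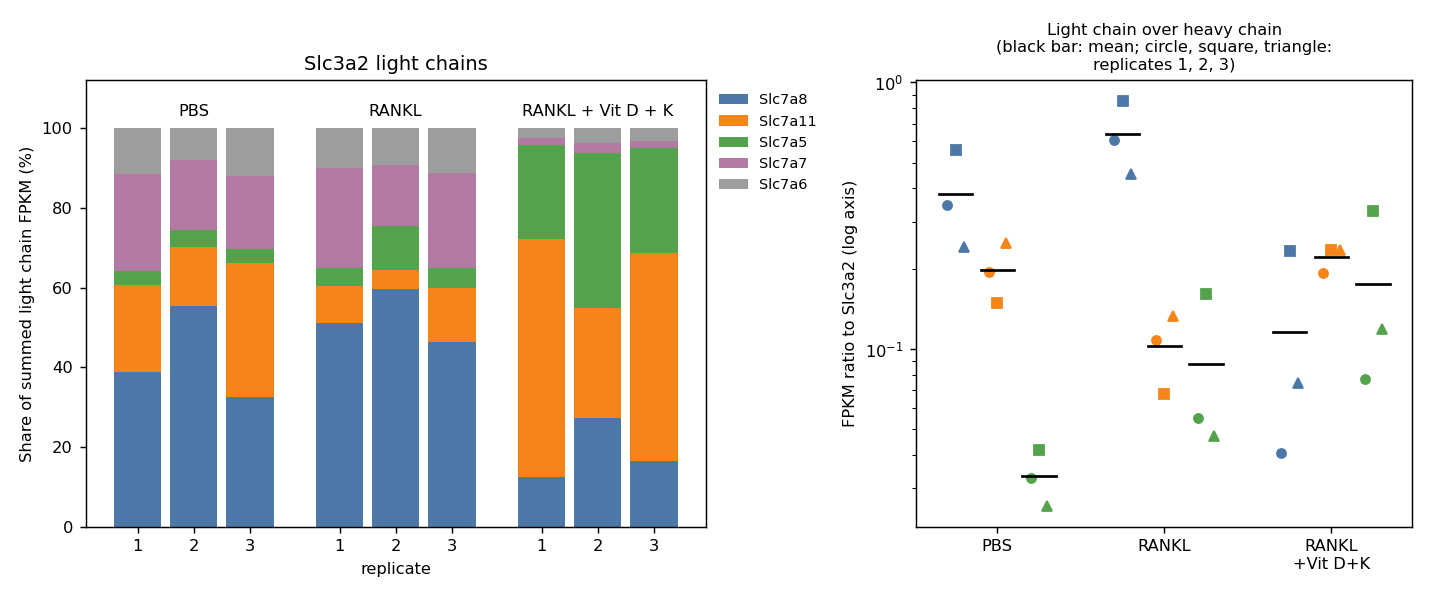
Left, share of each light chain in the summed light chain FPKM of each library (percent, bars from 0). Right, FPKM ratio of 3 light chains to Slc3a2 in each library (log axis, black bars are means). Slc7a8 has the largest mean share in PBS and RANKL (42.2% and 52.4%) and Slc7a11 with vitamins (46.4%).

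Slc1a4 (ASCT1), the alanine, serine and cysteine transporter on chromosome 11 (20302180 to 20332713, minus strand), was low without vitamins. It gave 0.340, 0.138 and 0.180 FPKM in PBS, from 99, 41 and 53 counts. In RANKL it gave 0.211, 0.435 and 0.201 FPKM (63, 128 and 62 counts), and with vitamins 7.50, 10.6 and 8.06 FPKM (2199, 3211 and 2360 counts). PBS and RANKL overlapped, and every vitamin library was far above both. The rise over RANKL was 34.0-fold (log2 fold change 5.09, SE 0.41, adjusted p = 0.000241) and over PBS 39.7-fold (adjusted p = 0.000141). These were the largest edgeR values of the 10, but with limma on log2(FPKM + 1), a scale that understates changes of low genes, Slc1a4 had 2.91 over RANKL, below Slc7a11 (3.94) and Slc7a5 (3.62), and 2.99 over PBS. Its paralog Slc1a5 (ASCT2), the glutamine transporter on chromosome 7 (16781340 to 16798274, plus strand), gave 9.51, 8.30 and 8.20 FPKM in PBS, 14.7, 24.2 and 11.3 in RANKL, and 17.7, 27.3 and 16.4 with vitamins. The PBS libraries were the lowest, and RANKL and vitamins overlapped. Slc1a5 was 2.37-fold higher with vitamins than in PBS (log2 fold change 1.24, SE 0.24, adjusted p = 0.00412). The difference from RANKL did not pass the test (log2 fold change 0.44, SE 0.24, adjusted p = 0.187), but did without replicate 2 of the RANKL group (0.75, adjusted p = 0.0239) and without the 3 replicate 2 libraries (0.58, adjusted p = 0.0121).

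Slc38a2 (SNAT2), a sodium-coupled transporter of small neutral amino acids on chromosome 15 (96687392 to 96699730, minus strand), was among the most abundant of the 10 and had the smallest rise of the 7. It was at 37.2, 41.2 and 40.6 FPKM in PBS and at 35.7, 43.4 and 38.5 in RANKL. With vitamins it was at 111, 101.2 and 107 FPKM. PBS and RANKL overlapped, and the vitamin libraries formed a narrow band above them. The rise over RANKL was 3.03-fold (log2 fold change 1.60, SE 0.12, adjusted p = 0.000235) and over PBS 2.74-fold (adjusted p = 0.000190).

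Slc6a9 (GlyT1), the sodium-dependent glycine transporter on chromosome 4 (117834506 to 117875198, plus strand), was the gene of the 10 that passed the test as lower with RANKL in the model without the block. It had 3.01, 2.37 and 2.94 FPKM in PBS, 0.741, 1.16 and 0.838 in RANKL, and 8.06, 7.73 and 6.80 with vitamins. The 3 groups did not overlap, with RANKL lowest and vitamins highest. RANKL lowered it 3.34-fold (log2 fold change -1.74, SE 0.19, adjusted p = 0.00228). With the vitamins it was 9.20-fold higher than in RANKL (log2 fold change 3.20, SE 0.20, adjusted p = 0.000120) and 2.76-fold higher than in PBS (adjusted p = 0.000625). Slc6a9 shares exonic bases with 3 genes on the other strand, and whether counting used the strand was not stated. The largest count of any of those genes in any library was 49, beside 286 to 3098 for Slc6a9.

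The cationic amino acid transporters Slc7a1 and Slc7a2, which bring arginine and lysine into the cell without a heavy chain, differed in level. Slc7a1 (CAT1), on chromosome 5 (148327410 to 148399904, minus strand), had 0.933, 0.863 and 1.19 FPKM in PBS, 1.40, 4.44 and 1.64 in RANKL, and 22.7, 25.7 and 23.7 with vitamins. The 3 groups did not overlap, and replicate 2 was the highest RANKL library. With vitamins it was 10.9-fold higher than in RANKL (log2 fold change 3.44, SE 0.39, adjusted p = 0.000753) and 24.4-fold higher than in PBS (adjusted p = 0.000211). Without replicate 2 of the RANKL group the log2 fold change over RANKL was 4.09. The higher level in RANKL than in PBS did not pass the test (log2 fold change 1.17, SE 0.36, adjusted p = 0.119), while DESeq2 called it (adjusted p = 0.0171). With 1 library left out, that log2 fold change ran from 0.52 to 1.44. Slc7a2 (CAT2), on chromosome 8 (40862396 to 40922308, plus strand), had a mean of 0.218 ± 0.106 FPKM in PBS, 0.235 ± 0.180 in RANKL and 0.341 ± 0.093 with vitamins (SD, n = 3), from 72 to 315 counts. The groups overlapped throughout, with log2 fold changes of 0.67 against both RANKL and PBS and an SE of 0.57 for each, neither of which passed the test (adjusted p of 0.397 and 0.377). Without replicate 3 of the RANKL group, its highest library, the log2 fold change over RANKL was 1.55 (adjusted p = 0.0589).

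By mean FPKM, Slc3a2 and Slc38a2 were the highest of the 10 in each group, with overlapping libraries in PBS (45.3 ± 6.73 and 39.7 ± 2.13) and separate ones with vitamins (316 ± 120.4 and 107 ± 4.93). In RANKL the order of the pair was the opposite (33.5 ± 2.80 and 39.2 ± 3.93), and the libraries overlapped. Slc7a8 came next in PBS (16.9 ± 6.35) and RANKL (21.2 ± 6.61). With vitamins the next were Slc7a11 (68.3 ± 21.5) and Slc7a5 (44.7 ± 14.7), whose libraries overlapped. Slc7a2 was the lowest of the 10 with vitamins, and Slc1a4 and Slc7a2 overlapped at the low end of the other groups.

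The other amino acid transporters were counted from lists. Of 38 other plasma membrane transporters, 28 were in the table and 17 were tested, of which 1 rose and 6 fell with vitamins over RANKL (median log2 fold change -0.16), beside 16.4% and 17.2% of all genes. The 7 calls became 4 without RANKL replicate 1 or 3. Slc36a2, a proton-coupled transporter of small amino acids, fell from 3.33 ± 0.35 to 0.397 ± 0.028 FPKM (log2 fold change -2.91, adjusted p = 0.000322). The light chain Slc7a7 fell from 8.29 ± 0.87 to 3.17 ± 0.95 FPKM (-1.26, adjusted p = 0.00185). Slc43a2 (LAT4), an exporter and importer of branched-chain and aromatic amino acids, was lower in RANKL than in PBS (65.4 ± 10.6 against 104 ± 2.83 FPKM, log2 fold change -0.79, adjusted p = 0.0236) and lower again with vitamins (37.9 ± 3.73 FPKM, -0.65 against RANKL, adjusted p = 0.0104). The fall with RANKL was lost without any 1 PBS library or RANKL replicate 3 (adjusted p between 0.0556 and 0.104). Slc7a13 had 4, 22 and 8 counts in RANKL and 0 in all 3 vitamin libraries, and limma did not call it (adjusted p between 0.0752 and 0.171). The 1 gene that rose, Slc38a10, named here after its value was seen, had a log2 fold change of 0.31 (adjusted p = 0.0255), and without RANKL replicate 1 or 3 no gene of the list was called higher.

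Carriers of lysosomes and mitochondria were counted next, beside the 16.4% of all genes called higher and 17.2% lower with vitamins over RANKL. Of 9 lysosomal transporters tested, 3 rose and 2 fell with vitamins over RANKL. Those 5 calls became 3 without RANKL replicate 1 or vitamin replicate 3, and 8 without vitamin replicate 2. Slc38a7, a glutamine and asparagine exporter of lysosomes, rose (log2 fold change 1.76, adjusted p = 0.00422), as did Slc36a4 (0.92, adjusted p = 0.0149, and 0.0514 without RANKL replicate 1 or 0.0542 without vitamin replicate 3) and Mfsd12, which brings cysteine into lysosomes and melanosomes (0.75, adjusted p = 0.00376). Slc36a1, a proton-coupled lysosomal amino acid exporter, fell (-1.63, adjusted p = 0.00285), as did Pqlc2 (-0.70, adjusted p = 0.0147), which was named after its value was seen. Of 11 mitochondrial carriers, Sfxn1, a serine carrier, rose (0.67, adjusted p = 0.0208) and Sfxn2, Sfxn3 and the ornithine carrier Slc25a15 fell (between -1.40 and -0.56, adjusted p between 0.0240 and 0.0443). That count of 4 was 0 when replicate 1 or 3 of either group was left out, 2 without RANKL replicate 2 or any 1 PBS library, and 7 without the 3 replicate 2 libraries. With 1 library left out, the log2 fold change of Sfxn2 ran from -2.29 to -1.02. Calls among all genes went from 5725 to between 3199 and 8259 with 1 library left out. They were 8952 without the 3 replicate 2 libraries. In RANKL against PBS, edgeR called 0 genes in either list, beside 2.35% of all genes called higher and 1.26% lower, with an unadjusted p under 0.05 for 2 lysosomal and 1 mitochondrial gene and 1 DESeq2 call in each. For the lysosomal list edgeR called 1 with the replicate block, 2 with only these groups and 3 without vitamin replicate 2. Without the 3 replicate 2 libraries it called 2 lysosomal and 2 mitochondrial genes. Calls among all genes went from 614 to 1612 with DESeq2, 1736 with only these groups and 1903 without vitamin replicate 2. They were 1740 without the 3 replicate 2 libraries.

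Genes of the pathways around these transporters were also counted, from lists chosen with earlier results of these data known. Of 11 amino acid response genes tested, 9 rose with vitamins over RANKL (median log2 fold change 3.24), beside the 16.4% of all genes. Trib3, a pseudokinase target of ATF4, went from 0.607 ± 0.201 to 108 ± 18.4 FPKM (log2 fold change 7.62, adjusted p = 2.08e-05), and Asns, asparagine synthetase, from 6.63 ± 4.99 to 99.5 ± 3.63 (4.09, adjusted p = 0.000740). With 1 library left out, the value of 4.09 for Asns ran from 3.82 to 4.84. Ddit3 (CHOP) rose by a log2 fold change of 4.50 (adjusted p = 0.000120) and Chac1, which degrades glutathione, by 3.98 (adjusted p = 0.00622), its vitamin libraries lying at 5.69, 35.5 and 6.26 FPKM. The value for Chac1 ran from 2.73 to 4.57 with 1 library left out. Of 10 glutathione and NRF2 target genes, 8 rose with vitamins (median 0.93), among them Srxn1 (1.51), Txnrd1 (1.36), Gclc (1.15) and Hmox1 (1.12), with adjusted p between 0.000773 and 0.00221. Against PBS, 2 of the 10, Srxn1 and Gss, were higher with vitamins and 1, Gclm, was lower (-0.41, adjusted p = 0.0183), with a median of 0.25, beside 19.8% of all genes called higher and 21% lower. Gss and Gclm were named after their values were seen, as was Gsr below. That count of 3 was 1 without PBS replicate 2 or vitamin replicate 3 and 7 without vitamin replicate 2. Calls among all genes went from 6932 to between 4766 and 8868 with 1 library left out. The mean of Hmox1 was 247 FPKM in PBS, 128 in RANKL and 249.6 with vitamins. In RANKL against PBS 5 of the 10 fell, namely Gclm, Hmox1, Gsr, Txnrd1 and Srxn1 (log2 fold changes between -1.24 and -0.89), beside 1.26% of all genes. That count was 1 without PBS replicate 3, 2 without PBS replicate 1 or RANKL replicate 1, 3 without RANKL replicate 3, and 8 without vitamin replicate 2. Calls among all genes went from 614 to 126 without PBS replicate 3 and to 1903 without vitamin replicate 2. Among the amino acid response genes Trib3 was lower with RANKL than in PBS (-1.28, adjusted p = 0.0301), a call that was lost without any 1 PBS or RANKL library or vitamin replicate 3 (adjusted p between 0.0511 and 0.124). The number of these genes called there was 2 with the replicate block, 3 with only these groups and 5 (4 lower and 1 higher) without vitamin replicate 2. Calls among all genes were 1736 with only these groups and 1903 without vitamin replicate 2.

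Genes of arginine use and synthesis, and genes of leucine sensing and mTORC1, were counted last. Of 5 such arginine genes tested, Odc1, ornithine decarboxylase, rose with vitamins over RANKL (8.70 ± 3.52 to 23.9 ± 2.23 FPKM, log2 fold change 1.62, adjusted p = 0.00194). That 1 of 5 is near the 16.4% of all genes. In RANKL against PBS, Odc1 (1.15, adjusted p = 0.0355) and Ass1, argininosuccinate synthase (4.27, adjusted p = 0.000126, named after its value was seen), were higher, beside 2.35% of all genes. Ass1 acts in arginine synthesis, not use. Without any 1 PBS or RANKL library or vitamin replicate 3 that count of 2 was 1, with an adjusted p for Odc1 between 0.0506 and 0.141. Without vitamin replicate 2 there were 3 calls higher and 1 lower, beside 1903 calls among all genes in place of 614. Arg2, an arginase also named after its value was seen, had 7.58 ± 2.44 FPKM in PBS and 1.33 ± 0.59 in RANKL. Its log2 fold change of -2.61 did not pass the test (adjusted p = 0.0679). Of 10 leucine sensing and mTORC1 genes, 2 rose and 2 fell with vitamins, beside 16.4% and 17.2% of all genes, a share near that background. In RANKL against PBS edgeR called 0, with 0 at an unadjusted p under 0.05 and 0 DESeq2 calls. Sesn1, a leucine-binding inhibitor of mTORC1, fell from 30.2 ± 1.54 to 3.16 ± 1.68 FPKM (-3.14, adjusted p = 0.000390). Its paralog Sesn2, counted among the amino acid response genes, rose from 8.12 ± 2.69 to 24.4 ± 6.22 FPKM (1.71, adjusted p = 0.00256). Sesn2 was named after its value was seen. Castor2 fell (-1.45, adjusted p = 0.0309). The call of Castor2 was lost without any 1 library other than vitamin replicate 2 (adjusted p between 0.0509 and 0.117). Its log2 fold change ran from -2.28 to -1.09 with 1 library left out. Rheb, the GTPase that activates mTORC1, rose (0.85, adjusted p = 0.00160), as did Rragc (0.93, adjusted p = 0.0263), which was named after its value was seen. The count of 4 was 2 without any 1 of the RANKL libraries or without replicate 1 or 3 of the vitamin group.

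**Figure D4:**
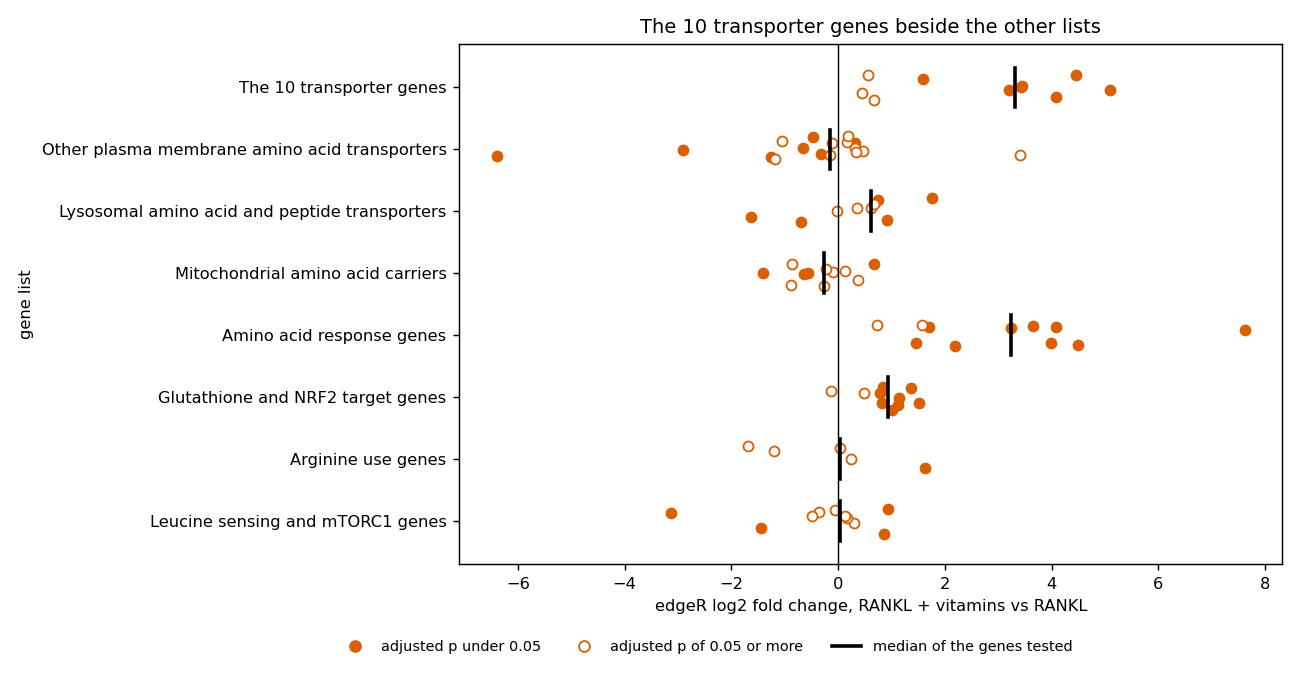
Log2 fold change of vitamins with RANKL over RANKL (horizontal axis) for each gene tested, by list, with filled points for an adjusted p under 0.05 and black bars for medians. The 10 transporter genes (median 3.31) and the amino acid response genes (median 3.24) lie to the right, and the point farthest to the left, Slc7a13, has 0 counts with vitamins, so its place depends on the prior count.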

How the data were processed

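RNA was sequenced from 9 libraries of mouse BMDMs (3 per group, replicate numbers from the labels). The authors deposited 1 table of 28379 genes with whole-number counts per gene, not normalized, and FPKM values, which the authors scaled to length and library. Per the labels' processing notes, cutadapt 1.9, HISAT2 2.0.4, StringTie 1.3.4d and edgeR were used. The notes name the human build hg38, whereas the table's gene IDs are mouse, and all 10 genes have the coordinates of GENCODE M21 (GRCm38). Use of the strand in counting, and the treatment of reads common to paralogs, is not given in the sources used here.

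Counts were compared in R 4.3.3 with edgeR 4.0.16 (filterByExpr, TMM, 1 quasi-likelihood model of all 9 libraries, Benjamini-Hochberg over 17002 genes, threshold 0.05). All 10 genes passed the filter. The SE is the log2 fold change divided by the square root of F. FPKM ratios were compared by the exact two-sided permutation test. Alternatives were DESeq2 1.42.0, limma 3.58.1 on log2(FPKM + 0.1) or log2(FPKM + 1), other size factors and filters, only the groups compared, a replicate block, CPM in place of FPKM in the ratios and shares, and each library left out. Leaving out the 3 replicate 2 libraries together was chosen after seeing the data. The fits were tested on simulated counts.

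Deviations of same-numbered PBS and RANKL libraries from their group means correlated at 0.122, 0.219 and 0.155 across genes. Those of differently numbered libraries lay between -0.144 and 0.00682. The numbers thus appear to pair these groups, from the data and not from the labels. For vitamins against RANKL the same-number correlations were 0.00625, 0.0428 and 0.107. The main model held no block in any comparison, and the block was fitted only as an alternative.

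From each gene list, the text names up to 4 genes with the largest changes among those called for vitamins against RANKL without overlap, and every transporter called for RANKL against PBS. List genes named outside this rule are marked as named after their values were seen. The 10 genes and the lists were chosen with earlier results of these data known. Promoter sequences are from RefSeq (GRCm38.p6). The limit of 3 counts is one of counting error alone, as the sources used here name no molecular identifiers.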

Additional observations from a re-analysis of the deposited data

How the results depend on the processing

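With 3 libraries per group the spread was estimated from few samples, and no alternative ended a call among the 10 genes. Over 570 refitted values of the 10 genes, 547 kept their direction and their side of the threshold, 17 newly passed it and 6 changed sign. For RANKL against PBS, the number of the 10 genes called went from 1 to 4 with DESeq2 (Slc7a11, Slc6a9, Slc1a5 and Slc7a1), to 3 with only the 2 groups, and to 2 with the replicate block or without the 3 replicate 2 libraries, with a range from 1 to 3 when 1 library was left out (3 without vitamin replicate 2). Calls among all genes there went from 614 to 1612 with DESeq2, 1736 with only the 2 groups and 1740 without the 3 replicate 2 libraries, and from 126 to 1903 when 1 library was left out (126 without PBS replicate 3, 1903 without vitamin replicate 2). For vitamins against RANKL they went from 5725 to 8952 without the 3 replicate 2 libraries and from 3199 to 8259 when 1 library was left out. The cause was not tested. The replicate block added Slc7a8 against RANKL (0.53, adjusted p = 0.0341) and against PBS (0.75, adjusted p = 0.00812). It changed no other call of the 10 than these and Slc7a11. Same-numbered vitamin and RANKL libraries correlated at 0.107 at most, so whether the numbers pair the vitamin libraries is uncertain. The limma fit on log2(FPKM + 0.1) gave 35.6% of calls for vitamins against RANKL as higher, where edgeR gave 48.8%, and a median of all genes of -0.16, where edgeR gave -0.04. For RANKL against PBS the share higher was 65.1% with edgeR and 77.1% with limma on log2(FPKM + 0.1) without a filter.

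Signs changed for RANKL against PBS in 3 genes that passed no test. Slc7a8 was -0.030 and Slc1a4 -0.17 without RANKL replicate 2, with ranges from -0.030 to 0.59 and from -0.17 to 0.75, and Slc1a4 was -0.43 without the 3 replicate 2 libraries. Slc7a2 was -0.12 with the replicate block and ran from -0.88 to 0.44 when 1 library was left out. The log2 ratio of Slc7a11 to Slc3a2, vitamins against PBS, ran from -0.0042 to 0.37, and that of Slc7a11 to Slc7a5, vitamins against RANKL, from -0.63 to 0.75. With CPM, which is not per length, the share of Slc7a5 was 2.13% in PBS and 13.4% with vitamins, and that of Slc7a11 was 47.8% in PBS, 23.5% in RANKL and 72.4% with vitamins.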
